A study of Homo sapiens with 4 samples.

Results

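The genes described here are ECSCR, ESAM, ICAM2, PODXL, MYCT1, VASH1 and TFPI, known mainly from the cells that line blood vessels. They are 7 of the 14812 genes that the array annotation names, and they were measured in cultured neuroblastoma cells. They were picked by symbol because their values were higher with SSRP1 siRNA in these same arrays, so their differences between the groups are a description and carry no test. For each symbol the brightest probe set on average (the group of probes that reports a transcript) was taken.

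BE(2)C is an established human neuroblastoma line, and all samples are total RNA from it, grown in DMEM with fetal calf serum. A group of 2 samples received non-targeting control siRNAs and a group of 2 received SSRP1 siRNA, both delivered with a cationic lipid reagent. RNA was taken 72 hours later, and 100 ng per sample was labelled with biotin for 1 Affymetrix Human Gene 2.0 ST array. SSRP1 is a subunit of FACT, the chaperone that moves histones out of the way of polymerases and back. All groups share the transfection, untransfected cells are not analysed here, and the labels give a single catalogue number for the SSRP1 siRNA. They do not say whether replicates were separate cultures, so any p-value covers the spread between these 4 samples alone, and that spread may be technical.

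Endothelial cells form the inner wall of vessels, where they hold together through junction proteins, present ligands to white blood cells and keep blood from clotting. ECSCR, ESAM and ICAM2 are membrane proteins of that wall, PODXL is a heavily glycosylated sialomucin of the CD34 family, and MYCT1 is a small membrane protein of vessels and blood stem cells. VASH1 and TFPI act differently. VASH1, induced by vascular growth factor, cuts the last tyrosine from alpha-tubulin and restrains vessel growth, while TFPI is a secreted, surface-bound inhibitor of the tissue factor clotting pathway. "Surface genes" therefore covers the first 5 and, in part, TFPI, and VASH1 encodes an enzyme rather than a surface protein.

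The siRNA target checked the labels. The log2 RMA values of SSRP1 were 9.05 and 9.23 with control siRNA against 7.42 and 6.97 with SSRP1 siRNA, a log2 change of -1.95 ± 0.17 (SE, limma adjusted p = 0.0479) that left 26.0% of the control level. That call was lost with a replicate block (limma adjusted p = 0.0569), with robust variances (0.0512), over all probe sets (0.144) and with any 1 array left out (0.241 to 0.599), while the change stayed between -2.17 and -1.72. SUPT16H, the other FACT subunit, had a change of -0.07 ± 0.10 (SE, limma adjusted p = 0.821). Over all 46255 probe sets the array medians lay between 3.37 and 3.42, and pairs of arrays correlated at 0.990 to 0.993. Of the labelled cell type's markers 13 of 17 were measured, and each of these had a mean above the median of all genes (4.64).

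All 7 genes were higher with SSRP1 siRNA, by 1.67-fold to 2.78-fold, and in each of them both SSRP1 siRNA arrays lay above both control arrays. Such a separation upward was seen in 21.8% of all genes, and a difference of at least 2-fold upward, which 5 of the 7 had, in 0.331%. The median log2 change of the 7 was 1.08, against -0.01 over all genes, and their changes ranked between 14 and 111 from the top. None of the 7 was among the 14 genes (0.0945%) past limma's adjusted p of 0.05, and all 7 had an unadjusted p under 0.05, as did 12.6% of all genes. Since the 7 were chosen from this contrast, nothing is read from these counts.

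**Figure D1:**
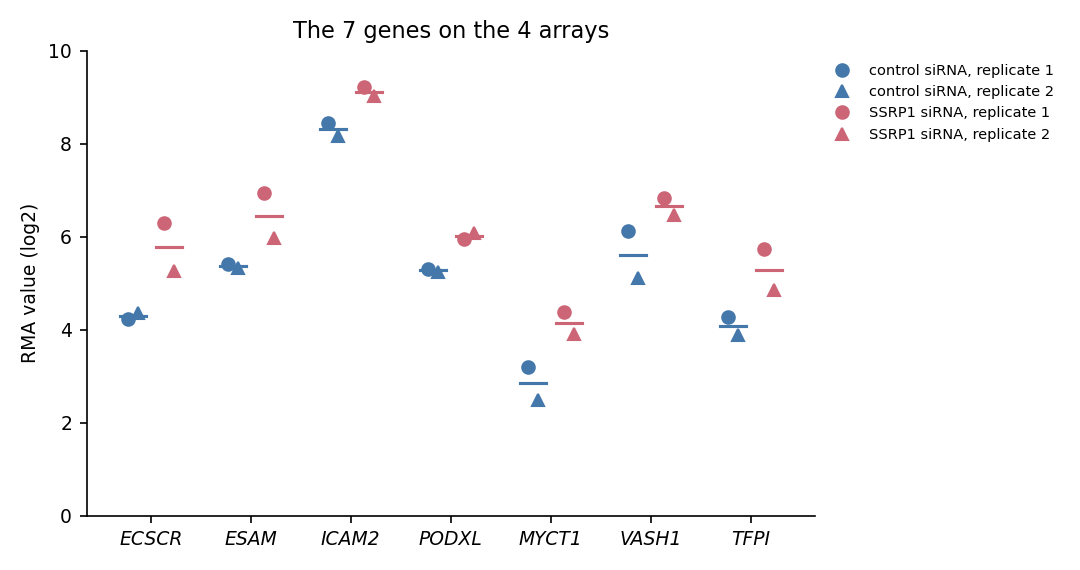
Log2 RMA value (vertical axis) of each of the 7 genes on the 4 arrays, with circles for replicate 1, triangles for replicate 2 and a bar for the mean of each group of 2. In every gene the SSRP1 siRNA points lie above the control points, closest together in VASH1, where 6.47 lies above 6.12.

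**Figure D2:**
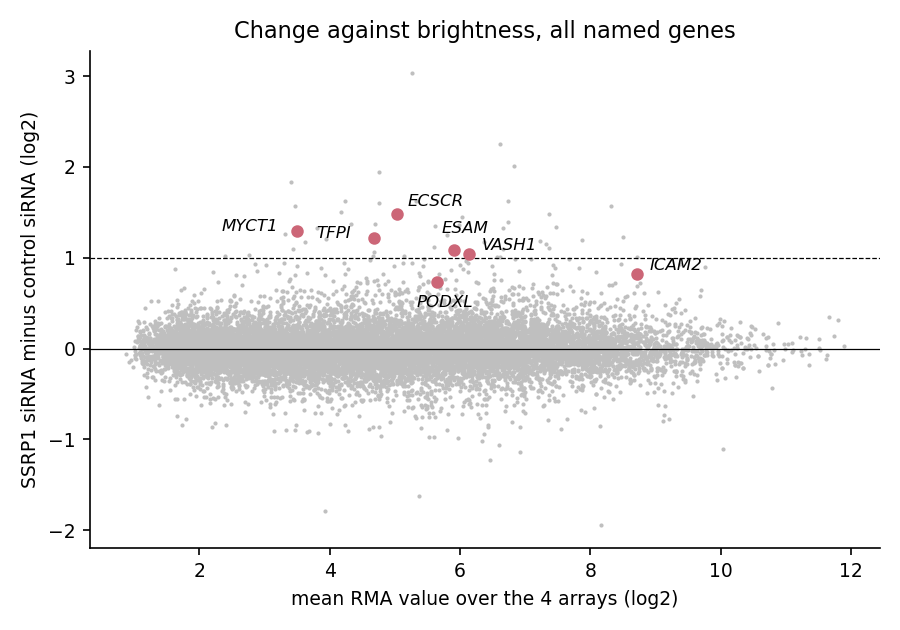
Log2 change (SSRP1 siRNA minus control siRNA) against the mean log2 RMA value over the 4 arrays for 14812 genes (grey), with the 7 genes in red; the dashed line is a 2-fold rise. ICAM2 (0.82) and PODXL (0.74) lie under that line and the other 5 above it.

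ECSCR, a sialomucin-like protein of the endothelial surface that affects cell movement and survival, had the widest difference of the 7. Its log2 values were 4.23 and 4.36 with control siRNA, against 6.29 and 5.26 with SSRP1 siRNA. The control arrays lay 0.126 apart, about the median gap over all genes (0.125), while the SSRP1 siRNA arrays lay far apart, and the groups did not overlap. The group mean went from 4.30 ± 0.09 (SD, n = 2) to 5.77 ± 0.73 (SD, n = 2), a log2 change of 1.48 ± 0.32 (SE) or 2.78-fold. Without SSRP1 siRNA replicate 1 the change was 0.96. A second, dimmer probe set for ECSCR read 2.26 and 2.00 with control siRNA and 3.60 and 2.50 with SSRP1 siRNA. It was higher by 0.92 on the log2 scale and again highest in SSRP1 siRNA replicate 1.

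ESAM, an immunoglobulin-type adhesion molecule of endothelial junctions and platelets, showed the same arrangement. Its log2 values were 5.41 and 5.33 under control siRNA and 6.94 and 5.97 under SSRP1 siRNA. SSRP1 siRNA replicate 1 was again the highest array, and the groups did not overlap. On average ESAM went from 5.37 ± 0.06 (SD, n = 2) to 6.45 ± 0.69 (SD, n = 2), a log2 change of 1.08 ± 0.30 (SE), and this change was 0.60 without SSRP1 siRNA replicate 1.

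ICAM2, a ligand of the leukocyte integrin LFA-1 that resting endothelium carries, was bright on every array. It read 8.44 and 8.17 with control siRNA and 9.22 and 9.03 with SSRP1 siRNA. The control arrays lay 0.27 apart and the SSRP1 siRNA arrays 0.19, against medians of 0.12 and 0.13 over all genes. The nearest arrays of the groups were 0.58 apart. The mean of ICAM2 went from 8.31 ± 0.19 (SD, n = 2) to 9.12 ± 0.13 (SD, n = 2), a log2 change of 0.82 ± 0.14 (SE) or 1.76-fold.

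PODXL, podocalyxin, coats the filtering cells of the kidney as well as vessel walls and is linked to actin through ezrin. It had the smallest difference and the tightest replicates of the 7. Its log2 values were 5.31 and 5.25 with control siRNA, against 5.95 and 6.08 with SSRP1 siRNA, and it was the 1 gene of the 7 in which SSRP1 siRNA replicate 2 was the higher. Its mean went from 5.28 ± 0.04 (SD, n = 2) to 6.02 ± 0.09 (SD, n = 2), a log2 change of 0.74 ± 0.11 (SE).

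MYCT1 was the dimmest of the 7 probe sets and the only one with a mean over the 4 arrays under the median of all genes. By control mean alone TFPI and ECSCR also lay under the median, at percentiles 41.2 and 44.7 of all genes, with MYCT1 at 22.3. MYCT1 read 3.20 and 2.49 under control siRNA and 4.37 and 3.91 under SSRP1 siRNA. Both groups were spread, without overlap. The MYCT1 mean went from 2.85 ± 0.50 (SD, n = 2) to 4.14 ± 0.33 (SD, n = 2), a log2 change of 1.29 ± 0.27 (SE) or 2.45-fold. At such levels a probe set can reflect background as well as RNA, and RMA compresses differences there.

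VASH1 rests on the least even control arrays. The probe set used read 6.12 and 5.10 with control siRNA and 6.84 and 6.47 with SSRP1 siRNA, so the nearest arrays of the groups were 0.35 apart on the log2 scale while the control arrays were 1.02 apart. On average VASH1 went from 5.61 ± 0.72 (SD, n = 2) to 6.66 ± 0.26 (SD, n = 2), a log2 change of 1.04 ± 0.33 (SE). Without control replicate 2 the change was 0.53. A second probe set for VASH1 had group means of 4.89 with control siRNA and 5.04 with SSRP1 siRNA, a difference of 0.15. The probe sets of VASH1 thus gave differences of unlike size, both upward.

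TFPI read 4.27 and 3.88 with control siRNA, against 5.73 and 4.86 with SSRP1 siRNA. SSRP1 siRNA replicate 1 stood highest here too, and the groups did not overlap. TFPI's mean went from 4.07 ± 0.27 (SD, n = 2) to 5.29 ± 0.61 (SD, n = 2), a log2 change of 1.22 ± 0.30 (SE) or 2.33-fold, which was 0.78 without SSRP1 siRNA replicate 1. With any 1 array left out, each of the 7 genes stayed higher with SSRP1 siRNA. This follows from the groups not overlapping and is no further check.

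The spread between arrays of the same group is given as a description, since it comes from the same 4 arrays that chose the genes, and with 2 arrays a group a choice on large differences favours genes with 1 high or low array. Between the SSRP1 siRNA arrays ECSCR, ESAM and TFPI differed by 1.03, 0.98 and 0.87 on the log2 scale, against a median of 0.13 over all genes. Those gaps lay at percentiles 99.7, 99.6 and 99.4 of all genes. Between the control arrays VASH1 and MYCT1 differed by 1.02 and 0.71, at percentiles 99.9 and 99.3, against a median of 0.12. ICAM2 and PODXL were at or under percentile 81.9 in both groups. Replicate 1 read higher than replicate 2 in 6 of the 7 genes within the control group and in 6 of the 7 within the SSRP1 siRNA group, with ECSCR and PODXL the exceptions in turn. SSRP1 itself was at 7.42 in SSRP1 siRNA replicate 1 and at 6.97 in replicate 2. The array with more SSRP1 transcript left was thus the one with higher values in 6 of the 7 genes, all but PODXL. A link between these values was not tested.

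**Figure D3:**
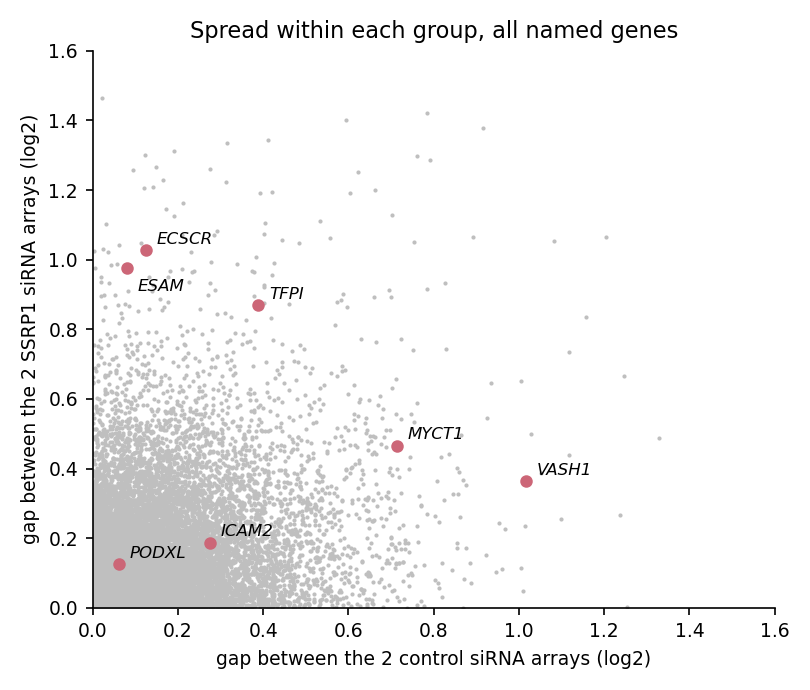
Absolute difference between the 2 control siRNA arrays (horizontal axis, log2) and between the 2 SSRP1 siRNA arrays (vertical axis, log2) for 14812 genes (grey), with the 7 genes in red. ECSCR, ESAM and TFPI lie high on the vertical axis (1.03, 0.98 and 0.87), VASH1 and MYCT1 far along the horizontal axis (1.02 and 0.71), and ICAM2 and PODXL among most genes.

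Promoter sequences are shown because the 7 genes were chosen as moving in 1 direction, so a reader can see how unlike their start regions are. RefSeq (GRCh38.p14) gave a promoter for 4 of the 7, and ESAM, ICAM2 and PODXL had none in the table used. Each line holds the 250 bases before the transcript start, read 5′ to 3′ on the gene's strand. Capitals mark matches on either strand to any of the motifs searched. The windows are chr5:139462744-139462993 (minus strand) for ECSCR, chr6:152697696-152697945 (plus) for MYCT1, chr14:76761218-76761467 (plus) for VASH1 and chr2:187554436-187554685 (minus) for TFPI.
ECSCR: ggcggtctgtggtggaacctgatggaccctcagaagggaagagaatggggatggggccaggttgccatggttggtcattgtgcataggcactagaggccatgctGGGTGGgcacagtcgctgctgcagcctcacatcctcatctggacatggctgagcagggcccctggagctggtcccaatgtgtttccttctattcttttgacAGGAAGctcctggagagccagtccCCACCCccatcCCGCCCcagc
MYCT1: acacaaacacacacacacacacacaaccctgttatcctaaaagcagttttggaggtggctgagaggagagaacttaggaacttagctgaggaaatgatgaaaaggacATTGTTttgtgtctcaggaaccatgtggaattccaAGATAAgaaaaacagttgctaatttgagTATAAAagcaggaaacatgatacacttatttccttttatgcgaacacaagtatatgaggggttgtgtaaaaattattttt
VASH1: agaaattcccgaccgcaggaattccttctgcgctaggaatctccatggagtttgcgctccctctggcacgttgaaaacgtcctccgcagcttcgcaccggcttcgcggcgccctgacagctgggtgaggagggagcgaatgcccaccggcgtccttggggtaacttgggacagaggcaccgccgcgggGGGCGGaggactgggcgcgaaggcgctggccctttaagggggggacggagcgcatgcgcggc
TFPI: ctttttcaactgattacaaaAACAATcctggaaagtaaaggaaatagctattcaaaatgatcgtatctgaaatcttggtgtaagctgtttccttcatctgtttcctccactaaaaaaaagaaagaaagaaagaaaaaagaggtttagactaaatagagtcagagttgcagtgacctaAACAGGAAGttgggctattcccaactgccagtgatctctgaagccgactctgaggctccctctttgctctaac

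Base composition split the 4 windows. VASH1 has the makeup of a CpG island, with 66.4% G and C and 26 CpG dinucleotides, while ECSCR held 3, TFPI 2 and MYCT1 1, against a median of 11 over 35116 promoters. ECSCR is nonetheless rich in G and C (60.0%), and TFPI and MYCT1 are not (38.4% and 36.8%), with a median of 58.0% over all promoters. The ETS-type sequence AGGAAG, of the kind that endothelial factors such as FLI1 and ERG bind, was found in ECSCR at base -45 and in TFPI at base -70, counted from the transcript start, and in 28.7% of all promoters. In TFPI it overlaps a match to AACAGGAA, a forkhead and ETS type sequence present in 1.85% of promoters. The ETS sequence CCGGAAG (8.52% of promoters) was in none of the 4 windows.

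Other matches were also scattered. CCACCC, a sequence of the kind that Krüppel-like factors bind, occurred in ECSCR at -146 and -21 and in 31.3% of promoters. The SP1 box GGGCGG occurred in ECSCR and VASH1 and in 42.6% of promoters. MYCT1 and TFPI held the SOX-type sequence AACAAT (8.98% of promoters). MYCT1 alone of the 4 held AGATAA, the core that blood and vessel factors such as GATA2 bind (9.17%), and the TATA box TATAAA (10.7%). TGANTCA for AP-1 (6.57%) and the E-box CACGTG (6.34%) were in none of the 4. No motif searched was in more than 2 of the 4 windows. A match is a stretch of letters and not a measured binding site.

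Genes beside the 7 on their chromosomes were compared next, a comparison chosen after CALCRL's value was known. For each gene the nearest measured protein-coding neighbour on either side was taken from RefSeq order, which gave 14 neighbours. CALCRL, the receptor subunit for adrenomedullin and calcitonin gene-related peptide, lies next to TFPI on chromosome 2 with no protein-coding gene between them. It rose from 3.90 and 3.60 to 7.02 and 6.54, a log2 change of 3.03 ± 0.19 (SE, limma adjusted p = 0.0267). WDR75, the nearest measured gene on TFPI's other side, had a change of -0.05 (limma adjusted p = 0.870). CALCRL alone of the 14 neighbours passed the test, where 0.081% of all genes passed upward. With its value known beforehand, nothing is read from that count. Over all probe sets no gene passed (smallest limma adjusted p 0.0783). An unadjusted limma p under 0.05 was found for 3 of the 14 neighbours, against 12.6% of all genes.

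The other 13 neighbours had log2 changes between -0.43 and 0.75, and limma's adjusted p was at least 0.263. PLXNA4, a semaphorin receptor gene beside PODXL, had the widest of these at 0.75 ± 0.20 (SE), about the size of PODXL's own difference. ESR1, the estrogen receptor gene and nearest measured neighbour of MYCT1, had a change of -0.43, and VIP, a neuropeptide gene on the other side of MYCT1, one of 0.09. VSIG2 beside ESAM had a change of 0.42. The neighbours of ECSCR (SPATA24 and STING1), ICAM2 (PRR29 and ERN1) and VASH1 (ESRRB and ANGEL1) had changes between -0.09 and 0.18. The median change over the 14 neighbours was 0.06.

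**Figure D4:**
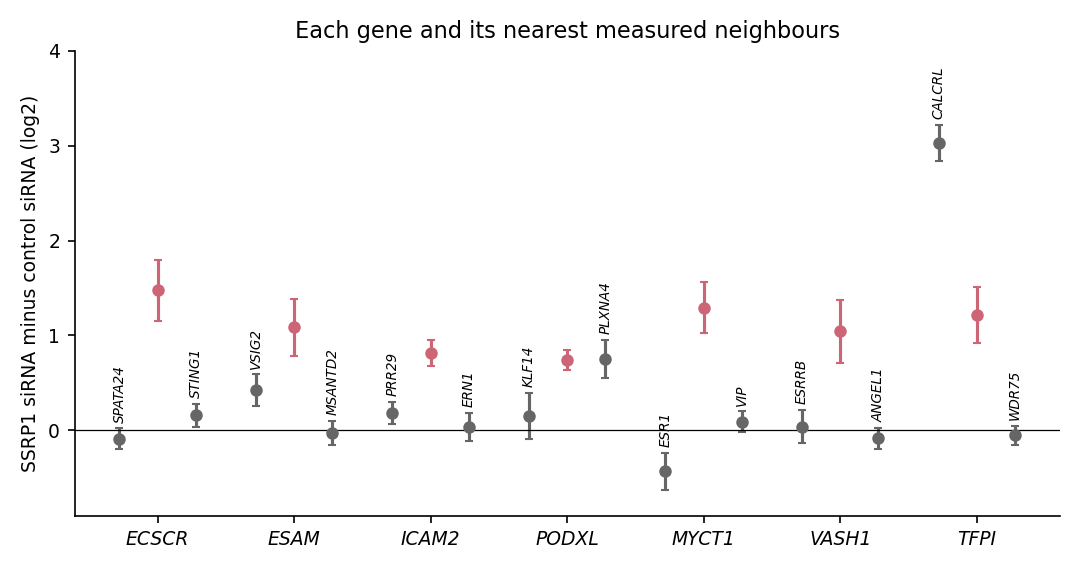
Log2 change (SSRP1 siRNA minus control siRNA, error bars ± SE of the limma fit, n = 2 against 2) of each of the 7 genes (red) with its nearest measured protein-coding neighbour on each side (grey). CALCRL (3.03), beside TFPI, is the 1 neighbour past the test, and the others lie between -0.43 and 0.75.

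Endothelial genes, and relatives or partners of the 7 that need not be endothelial, were counted from 7 lists. These hold 135 genes besides the 7, of which 89 were measured. The lists were drawn up with earlier results of these data known, so their counts are a description. KLF2, the flow-induced transcription factor of vessel walls, alone of the 89 passed the test, with values of 5.89 and 5.96 under control siRNA and 7.54 and 7.56 under SSRP1 siRNA. Its log2 change was 1.62 ± 0.10 (SE, limma adjusted p = 0.0267), and none of the 89 was lower and past limma's test (0.0135% of all genes were), while 22 (24.7%) had an unadjusted p under 0.05, against 12.6% of all genes. In 27 of the 89 (30.3%) the groups separated upward, against 21.8% of all genes, and in 17 downward, against 22.5%. The median change was 0.05, against -0.01 over all genes. The count of 1 was the same in 7 of 14 alternatives, 5 in 2 of them (a variance trend and the dimmer genes left out, each with ETS2, HEY1, KLF2, LYL1 and SOX7) and 0 in 5 (all probe sets and each array left out). With an array left out KLF2's change was 1.59 to 1.65 and limma's adjusted p 0.241 to 0.599, in fits where 1 group has a lone array assumed to vary like the other group.

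The transcription factor list had the highest median change of the 7 lists, 0.27. Like the other lists it was drawn up with earlier results of these data known, so its shares are a description and carry no test. Of its 24 measured genes 17 had a change above 0 and 11 (45.8%) separated upward, against 21.8% of all genes. An unadjusted p under 0.05 was also found for 11 of the 24 (45.8%), against 12.6% of all genes. FLI1, an ETS factor of endothelial and blood cells, read 5.22 and 4.66 against 6.62 and 5.95, a log2 change of 1.35 ± 0.28 (SE, limma adjusted p = 0.184). SSRP1 siRNA replicate 1 was its highest array, as for 6 of the 7 genes, all but PODXL. Outside that list 65 genes were measured, with a median of 0.02 and 16 (24.6%) separating upward, near the share of all genes.

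Genes that define endothelial cells were mostly dim. Of 22 identity markers 16 were measured, 13 of them with a mean under the median of all genes. None passed limma's test, and 3 of the 16 had an unadjusted p under 0.05, against 12.6% of all genes. The median change was 0.09, with 14 of 16 above 0, against a median of -0.01 over all genes. The ETS factor ERG had a change of 0.68 (limma adjusted p = 0.225), and PLVAP, which forms the diaphragms of fenestrated endothelium, one of 0.43 (limma adjusted p = 0.365). The defining genes PECAM1, CDH5 and TEK are not analysed here. On the linear scale the 16 markers summed to 473 and 472 with control siRNA (replicates 1 and 2) and to 576 and 538 with SSRP1 siRNA. ENG, a TGF-beta co-receptor and the brightest of them, carried much of that sum, with a change of 0.28. Without it the sums were 234 and 234, against 269 and 264. None of the 16 was at 0, which RMA does not give. The part of endothelial cells in the higher values was not tested, and in bulk RNA more cells of a type and more RNA per cell cannot be told apart.

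Among partners and relatives of the 7, changes of both signs were measured and none passed limma's test. In the adhesion list (17 of 23 measured, median -0.04) MCAM, an adhesion molecule of vessels and melanoma, had a change of -0.88 (limma adjusted p = 0.239) and SELE, endothelial selectin, one of 0.47. ICAM1 and VCAM1, the inducible ligands beside ICAM2, had changes of -0.17 and -0.11. In the list of PODXL's relatives and its actin linkers (8 of 11 measured, median 0.11) the junction scaffold gene TJP1 had a change of 0.63 (limma adjusted p = 0.298) and CD34 one of 0.39, while ezrin (EZR) had 0.18. In the tubulin list (9 of 19 measured, median 0.07) the carboxypeptidase gene AGBL3 had a change of 0.44 from a dim level. VASH2, the paralog of VASH1, had -0.25 (limma adjusted p = 0.463), and SVBP, the partner that both vasohibins need, 0.19. SVBP, EZR, ICAM1 and VCAM1 were named for their link to the 7, after their values were seen.

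Clotting and VEGF pathway genes also had changes of both signs. Of 11 measured of 23 clotting genes (median 0.00045) the widest changes were 0.23 for ANXA2, which binds plasminogen activators, and -0.21 for GAS6, a vitamin K-dependent ligand. In the list of VEGF ligands, receptors and related genes (13 of 18 measured, median -0.08) the semaphorin and VEGF co-receptors had changes of opposite sign, with 0.60 for NRP1 (limma adjusted p = 0.257) and -0.64 for NRP2 (limma adjusted p = 0.219). None of these lists had a gene past limma's test in either direction. An unadjusted p under 0.05 was found for 12.6% of all genes. In the adhesion list it was found for 3 of 17, among PODXL's relatives for 1 of 8 and in the tubulin list for 1 of 9. Among clotting genes it was found for 0 of 11 and among VEGF pathway genes for 4 of 13. The lists hold no angiopoietins. ANGPT2, a vascular growth factor that was chosen after its value was seen, had a change of 1.34 (limma adjusted p = 0.0427). It is 1 of the 14 genes past the test, and over all 46255 probe sets none passed (smallest limma adjusted p 0.0783). Picked for its value, it is a description and adds nothing to the lists.

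**Figure D5:**
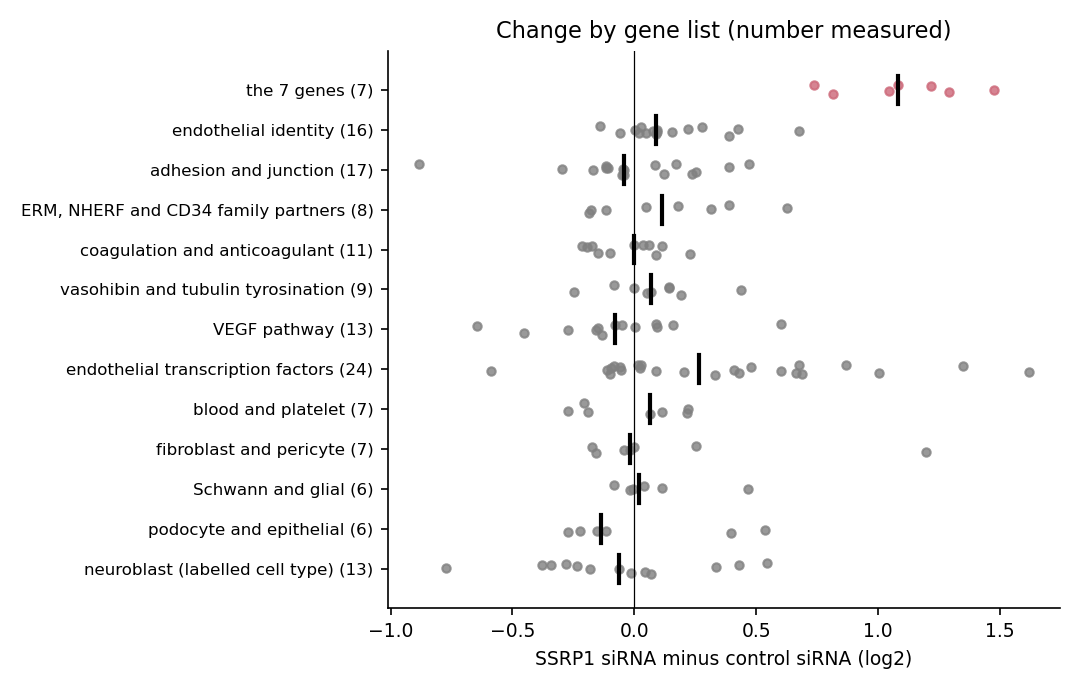
Log2 change (SSRP1 siRNA minus control siRNA) of every measured gene in each list, with the number measured in parentheses and a black bar at the median; the 7 genes, which were chosen from this contrast, are in red. The transcription factor list has the highest median of the other lists (0.27), and a gene can stand in more than 1 list.

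Markers of other cells that a culture could hold were set beside the 7. None of them passed limma's test in any of the 4 lists. Blood and platelet markers (7 of 14 measured) summed on the linear scale to 191 and 189 with control siRNA and to 182 and 178 with SSRP1 siRNA, with none at an unadjusted p under 0.05, and CD2 and CD14 had changes of -0.27 and 0.22. Fibroblast and pericyte markers (7 of 13) summed to 430 and 337 with control siRNA and to 623 and 557 with SSRP1 siRNA, and without LUM to 231 and 217, against 238 and 230. LUM, a matrix proteoglycan gene, had a change of 1.20 (limma adjusted p = 0.184), THY1 had 0.25, and the list's median was -0.02. LUM alone of these 7 had an unadjusted p under 0.05, against 12.6% of all genes.

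Schwann and glial markers (6 of 10 measured) summed to 124 and 122 with control siRNA and to 141 and 130 with SSRP1 siRNA, with changes of 0.47 for S100B (limma adjusted p = 0.262), the 1 at an unadjusted p under 0.05, and 0.12 for ERBB3. Podocyte and epithelial markers (6 of 9), listed because podocytes carry PODXL, summed to 282 and 275 with control siRNA and to 281 and 287 with SSRP1 siRNA. SYNPO, an actin-linked protein of podocytes, had a change of 0.54 and KRT8 one of 0.40. Of the 6, 4 had a change below 0, with a median of -0.14. An unadjusted p under 0.05 was found for 2 of the 6, SYNPO and WT1, against 12.6% of all genes. WT1, named after its value was seen, had a change of -0.27. Neuroblast markers summed to 6472 and 6448 with control siRNA and to 5981 and 6196 with SSRP1 siRNA. Of the 13 measured, 8 had a change below 0 and 5 one above, with a median of -0.06. Downward separation was seen in 6 (46.2%), against 22.5% of all genes, and upward separation in 3 (23.1%), against 21.8%. An unadjusted p under 0.05 was found for 6 of the 13 (46.2%), against 12.6% of all genes. None passed limma's test. DBH, the enzyme that makes noradrenaline, had a change of -0.77 (limma adjusted p = 0.111) and INSM1 one of 0.54 (limma adjusted p = 0.195). HAND2, TH, PHOX2A, DDC and CHGA, named after their values were seen, had changes of -0.38, -0.34, -0.28, 0.43 and 0.34. The part of any of these cell types in the values of the 7 genes was not tested.

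The genes closest in pattern to the 7 were found from the distance between profiles over the 4 arrays, after the control mean of each gene was subtracted. The mean profile of the 7 stood at 0.17 and -0.17 under control siRNA and 1.36 and 0.83 under SSRP1 siRNA. TFPI lay nearest to it among the 7 (root mean square distance 0.15), and ECSCR and PODXL farthest (0.36 each). Among all other genes the nearest were FAT4, an atypical cadherin (0.096), CREG1, a secreted glycoprotein (0.099), the noncoding LINC00920 (0.13), MYLIP, a ubiquitin ligase for lipoprotein receptors (0.14), and PDGFD, a platelet-derived growth factor (0.14). FAT4 read 5.84 and 5.70 with control siRNA, against 7.18 and 6.71 with SSRP1 siRNA, higher in replicate 1 of both groups like most of the 7. The log2 changes of these 5 genes lay between 0.92 and 1.19, and limma's adjusted p between 0.103 and 0.216. They were picked from the same contrast and 4 arrays, so their likeness is a description.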

How the data were processed

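RNA was measured on 4 Affymetrix Human Gene 2.0 ST arrays, 2 per group, grouped by sample title. The deposited table gives a log2 value for each probe set. It came from RMA run by the authors, as the submitters' processing notes name it; software, version and genome build: not given in the sources used here. RMA as usually run makes array distributions alike, so a shift of all transcripts would not show. Precision is limited by having 4 arrays. Of 46255 probe sets, 15835 had 1 gene symbol through the platform annotation and the RefSeq table of GRCh38.p14, 0 had several and 30420 were unnamed here and left out of the main test; every gene ID matched. SSRP1 siRNA minus control siRNA was fitted for 14812 genes with limma 3.58.1 in R 4.3.3 (lmFit, eBayes, no filter, no block, 2 residual and 3.79 prior degrees of freedom), with Benjamini-Hochberg adjustment and a threshold of 0.05. The script was tested on simulated data. The 7 genes, the lists, the motifs and the tests were chosen with earlier results of these data known. In each list every gene past the test and the 2 with the largest change were named, with the 5 genes nearest in pattern. The alternatives were a replicate block, a variance trend, robust variances, quantile normalization, median centring, averaged probe sets, a level filter, all probe sets, each array left out, an adjusted p under 0.1 and a minimum of 1.5-fold.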

Additional observations from a re-analysis of the deposited data

How the results depend on the processing

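The 14 genes past the test became 6 with the replicate block, 215 with a variance trend, 9 with robust variances, 28 after quantile normalization, 23 after median centring, 179 when dimmer genes than the median were dropped, 41 at an adjusted p under 0.1 and 0 over all 46255 probe sets (smallest limma adjusted p 0.0783, 3854 at an unadjusted p under 0.05). Leaving out each array gave 0 to 0 genes, with 1200 to 1672 at an unadjusted p under 0.05 in limma. The 1 gene of the wider lists of endothelial and related genes became 5 with a variance trend and with the level filter and 0 over all probe sets. The SSRP1 change stayed at -1.95 but missed the threshold with the replicate block (limma adjusted p = 0.0569), robust variances (0.0512) and all probe sets (0.144), and ran from -2.17 to -1.72 with an array left out (0.241 to 0.599). With an array left out the median change of the 7 genes ran from 0.80 to 1.53. It otherwise kept to within the spread between replicates. All of the 7 in a fit stayed above 0 in every setting tried, which for most settings could not have come out otherwise. The replicate block, variance trend, robust variances, level filter and all probe sets leave each gene's log2 change as it was. With an array left out the sign follows from the groups not overlapping. Only quantile normalization, median centring and averaged probe sets could have moved it otherwise. MYCT1 was not in the fit with the level filter, which used the mean over the 4 arrays. ECSCR and TFPI were in it, although their control means lay at percentiles 44.7 and 41.2 of all genes. ICAM2 and PODXL were under the threshold with a variance trend and with the level filter, where 215 and 179 genes were. None of the 7 was under it in the other fits to all 4 arrays. Since the 7 were chosen from this contrast, these calls are a description and carry no test. The causes were not tested. Replicate numbers are shared only as numbers: deviations of same-numbered arrays correlated at 0.114 across genes, and 5 of the 6 genes called with the block were among the 14. Brightness limits MYCT1 and other dim genes most.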
